A study of Mus musculus with 8 samples.

Results

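The 31 genes described here are those whose probe was well above background on all 4 arrays of mouse dermal fibroblasts transfected with a miR-127-3p mimic and on none of the 4 control arrays. They were picked from 26732 probes with a RefSeq mRNA accession, of which 26430 (19827 genes) had no outlier flag on any array. A probe counts as well above background where the scanner software's detection flag is set on at least 0.5 of its spots, and the brightest qualifying probe stands for a gene. Of the 19827 genes, 31 (0.156%) met this rule, and 39 (0.197%) met it with the groups exchanged. The detection flags of these 8 arrays chose the genes, so their levels and fold changes are given as a description, without a test.

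The cells were primary fibroblasts from the skin of newborn C57BL/6 mice, cultured and then transfected with miR-127-3p mimic oligonucleotides (samples 2, 4, 5 and 7) or with control oligonucleotides (samples 1, 3, 6 and 8). RNA was labelled with Cy3 and each sample was read on its own array of 1 mouse expression slide. The treatment field of samples 3 and 6 names both oligonucleotides, and their titles and source names place them among the controls. The number of animals and the time after transfection are not given in the sources used here, nor is it stated that the samples came from separate cultures, so p-values measure the spread between these samples. All 10 fibroblast markers looked for were well above background on all 8 arrays. Markers of other cells were seen too. On all 4 control arrays 7 of 8 macrophage, 5 of 8 keratinocyte, 4 of 6 skeletal muscle and 3 of 6 adipocyte markers were well above background. The same held for 2 of 6 melanocyte, 2 of 6 Schwann cell, 2 of 6 endothelial and 1 of 6 mast cell markers.

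A mimic is a synthetic RNA duplex that is loaded like a natural microRNA and lowers messenger RNAs that pair with its seed. Neuronal, ciliary, immune and epithelial genes are known for restricted expression. In these cultures many were nonetheless seen without the mimic. Of the lists used below, 16 of 40 neuronal, 17 of 39 ciliary, 19 of 40 immune and 14 of 40 epithelial genes were well above background on all 4 control arrays. The sequence below is the mature microRNA that the mimic stands for, taken from RefSeq (GRCm38.p6, chr12:109592888-109592909, plus strand), with the seed, bases 2 to 8, in capitals.
mmu-miR-127-3p: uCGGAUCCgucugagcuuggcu

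The promoters of the leading gene of each tissue class are shown next to give the sequence before the start of the genes with the largest lower bound in their class. They are the 250 bases before the annotated start (RefSeq, GRCm38.p6), 5′ to 3′ on the gene's strand. Capitals mark matches to 7 motifs searched on both strands. They were the TATA box, spelled TATAAA, the CCAAT box of those letters, the GC box, spelled GGGCGG, the AP-1 site, spelled TGANTCA, the NF-kB site, spelled GGGNNTTCC, the cAMP response element, spelled TGACGTCA, and the interferon response motif. Matches of different motifs were counted separately where they overlapped. The Hoatz window is chr9:51102079-51102328 (minus strand), that of Cend1 chr7:141429563-141429812 (minus strand) and that of Fam83g chr11:61684160-61684409 (plus strand). Il1rl1 has 2 annotated starts, with windows at chr1:40429320-40429569 and chr1:40439379-40439628 (plus strand).
Hoatz: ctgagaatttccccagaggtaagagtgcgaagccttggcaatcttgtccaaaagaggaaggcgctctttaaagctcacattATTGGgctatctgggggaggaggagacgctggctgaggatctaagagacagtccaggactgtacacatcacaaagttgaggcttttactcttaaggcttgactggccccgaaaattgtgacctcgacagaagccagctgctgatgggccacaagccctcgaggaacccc
Cend1: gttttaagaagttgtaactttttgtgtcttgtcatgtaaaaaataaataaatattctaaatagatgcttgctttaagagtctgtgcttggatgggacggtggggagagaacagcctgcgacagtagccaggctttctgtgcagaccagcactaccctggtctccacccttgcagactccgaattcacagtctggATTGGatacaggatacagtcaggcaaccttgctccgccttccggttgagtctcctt
Fam83g: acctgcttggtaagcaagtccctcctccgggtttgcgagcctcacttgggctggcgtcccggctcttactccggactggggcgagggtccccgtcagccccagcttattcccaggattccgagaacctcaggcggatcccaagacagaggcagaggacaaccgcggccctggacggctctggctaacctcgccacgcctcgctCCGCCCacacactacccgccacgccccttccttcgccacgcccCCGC
Il1rl1 start 1: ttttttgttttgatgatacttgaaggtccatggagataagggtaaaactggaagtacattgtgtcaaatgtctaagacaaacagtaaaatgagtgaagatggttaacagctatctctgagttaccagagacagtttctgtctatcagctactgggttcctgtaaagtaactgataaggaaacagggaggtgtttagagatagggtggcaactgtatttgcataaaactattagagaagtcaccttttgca
Il1rl1 start 2: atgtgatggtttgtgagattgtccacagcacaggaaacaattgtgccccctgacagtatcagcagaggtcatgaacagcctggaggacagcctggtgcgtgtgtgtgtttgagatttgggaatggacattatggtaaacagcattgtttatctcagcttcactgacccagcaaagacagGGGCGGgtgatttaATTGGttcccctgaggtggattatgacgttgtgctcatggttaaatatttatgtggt

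In the Hoatz and Cend1 windows the capitals are a CCAAT box on the opposite strand. The Fam83g capitals are GC boxes on the opposite strand, the last of them cut by the end of the printed run. The second Il1rl1 window holds a GC box and a CCAAT box, and the first holds none of the motifs. The table held 300-base windows (250 before and 50 after the start) for 24 of the 31 genes, and none for Mapt, Gria3, Msr1, Lamc3, Jam2, Ang2 and the entry without a symbol. A CCAAT box was found in 12 of the 24 (50%), against 42.2% of 15662 other RefSeq genes on the array, and a GC box in 12 (50%), against 52.8%. A TATA box was found in 4 (16.7%, against 14.2%), an AP-1 site in Cd80 and Xkrx (8.33%, against 8.18%) and an NF-kB site in Ccdc122 and Fcgr3 (8.33%, against 7.27%). None of the 24 windows held the interferon response motif, which 3.98% of the others did, or the cAMP response element, which 2.70% did. The ratio of observed to expected CpG pairs was under 0.6 in 16 of the 24 genes (66.7%), against 49.3% of the others.

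Levels below are processed intensities, multiplied by 1 factor per array so that all arrays share the same 75th percentile, in arbitrary units called scaled intensity. Probes differ in efficiency, so values are compared between arrays and not between genes. The detection level used for folds was the lowest signal of a probe with the detection flag on all its spots and no outlier flag. On this scale it was 26.8, 43.7, 37.6 and 38.3 on mimic arrays 2, 4, 5 and 7, and 31.1, 29.8, 31.8 and 40.3 on control arrays 1, 3, 6 and 8. A control signal under that level is known only to be low, so folds are written as "at least". These bounds hold for the processed signals and not for other background corrections. They set the mean log2 signal of the mimic arrays against the mean over control arrays of the higher of the gene's own signal and that level. Counting probes flagged on the smaller share of spots that the rule accepts, the level was 42.2 on mimic 4, 30.1 on control 6 and 26.1 on control 8. It was unchanged on the other arrays. With those levels the lower bounds ran from 1.49 for Msr1 to 8.79 for Hoatz. The bounds given below use the stricter levels.

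The groups did not overlap for any of the 31 genes, whereas every mimic array lay above every control in 10.9% of all 19827 genes. This follows from the rule and is no result by itself. The lower bound on the fold ran from 1.32 for Msr1 to 7.78 for Hoatz, with a median of 2.19. It reached 2 for 19 of the 31 genes. The fold of the measured signals had a median of 3.90. That is a median log2 fold change of 1.96, which was 0.63 after normexp background correction, with groups that did not overlap for 26 of the 31 genes. All 31 stayed higher with the mimic under that correction. Their normexp fold changes were, however, smaller than the lower bounds as well. On the log2 scale they were 1.72 against a bound of 2.96 for Hoatz and 0.33 against 0.40 for Msr1.

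**Figure D1:**
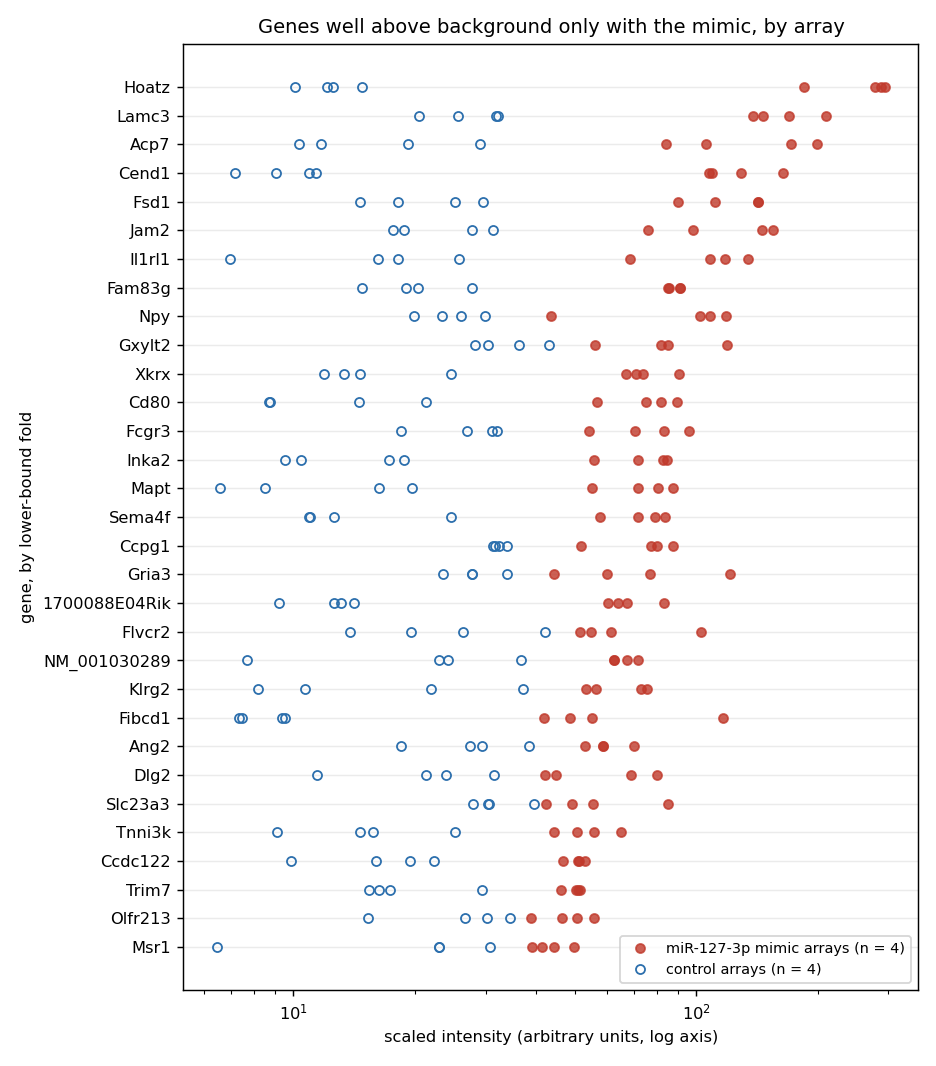
Scaled intensity (arbitrary units, log axis) of each of the 31 genes on the 4 mimic arrays (filled points) and the 4 control arrays (open points), with genes ordered by lower-bound fold from the top. No filled point lies left of an open point of the same gene, and the gap is widest for Hoatz.

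Over the 31 genes the median scaled intensity was 82.7, 79.2, 62.6 and 73.9 on mimic arrays 2, 4, 5 and 7, and 18.9, 19.9, 18.8 and 19.0 on control arrays 1, 3, 6 and 8. Mimic 5 was the lowest mimic array for 16 of the 31 genes and mimic 2 for 9, while mimic 2 and mimic 4 were each the highest for 11. The highest mimic array exceeded the lowest by 1.07-fold to 2.79-fold, with a median of 1.58-fold. The arrays lay in 2 rows of the slide, each with 2 arrays per group. The median log2 fold change of the 31 genes was 2.19 within row 1 and 2.05 within row 2. All 31 were higher with the mimic in both rows, which follows from groups that did not overlap.

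Hoatz was the only ciliary gene of the set. It encodes a small protein of motile cilia and sperm flagella, whose loss in mice disturbs ciliary motion. Its scaled intensity was 288, 294, 185 and 278 on mimic arrays 2, 4, 5 and 7, against 12.6, 12.1, 14.8 and 10.1 on control arrays 1, 3, 6 and 8. The lowest mimic array, mimic 5, was still 3.95 times its detection threshold, and the highest control reached 0.375 of the threshold. The lower bound for Hoatz was 7.78-fold.

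Neuronal genes formed the largest of the named classes, which were assigned by hand, with 6 of the 31. The share of each class among all RefSeq genes on the array was not counted, so class sizes are no result about the set. Cend1, which promotes cell cycle exit and differentiation of neuronal precursors, read 130, 165, 108 and 110 on mimic arrays 2, 4, 5 and 7, against 11.4, 10.9, 7.15 and 9.08 on control arrays 1, 3, 6 and 8. Cend1 was at least 3.82-fold higher, and no control exceeded 0.329 of its threshold. Npy, the neuropeptide Y gene, read 108, 118, 43.7 and 102 with the mimic and 26.1, 19.9, 30.0 and 23.4 in controls, in the same array order. Mimic 5 stood apart from the other mimic arrays, at 1.03 times its threshold, and Npy was at least 2.64-fold higher over all 4. Mapt, the gene of the microtubule protein tau, read 71.9, 80.3, 55.1 and 87.8 with the mimic and 6.59, 19.7, 16.3 and 8.49 in controls, at least 2.20-fold higher.

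The other neuronal genes had lower bounds between 1.72-fold and 2.19-fold. Sema4f, a membrane-bound semaphorin that guides axons and oligodendrocyte precursors, read 71.7, 79.2, 57.7 and 83.6 with the mimic and 11.0, 24.7, 12.6 and 10.9 in controls (at least 2.19-fold). Gria3, an AMPA-type glutamate receptor subunit, read 60.1, 121, 77.0 and 44.4 with the mimic and 27.8, 27.7, 34.0 and 23.6 in controls (at least 2.11-fold). Dlg2, a scaffold of the postsynaptic density, read 79.9, 68.7, 42.2 and 44.8 with the mimic and 21.4, 11.46, 23.9 and 31.4 in controls (at least 1.72-fold). No control reached the lowest mimic array in any of them.

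To see whether neuronal genes outside the set moved as well, a list of 40 was followed through a fit over all features (limma, adjusted p under 0.05). Of its 18 tested genes that are not among the 31, 10 rose and 0 fell. At an unadjusted p under 0.05, 10 rose and 1 fell. The share of all tested genes at an unadjusted p was not counted, here or for the lists below. At the adjusted threshold, 18.2% of all 12031 tested genes with a symbol rose and 20.1% fell (38.4% in either direction). Kif5a, a neuronal transport kinesin, read 165, 131, 128 and 119 on mimic arrays 2, 4, 5 and 7, against 38.5, 46.0, 35.5 and 46.4 on control arrays 1, 3, 6 and 8, a log2 fold change of 1.71 (SE 0.13, limma adjusted p = 5.36e-05). The tubulin regulator Stmn4 changed by 3.15 on the log2 scale (SE 0.38, limma adjusted p = 0.000480), the deubiquitinase Uchl1 by 2.05 (SE 0.28, limma adjusted p = 0.000860) and the neuron-enriched enolase Eno2 by 1.26 (SE 0.21, limma adjusted p = 0.00272). For all of these the mimic arrays lay above every control.

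Of the 40 neuronal genes, 16 were well above background on all 4 control arrays and 19 were well above background on no array, among them Rbfox3, Map2, Dcx, Syt1, Nefl, Nefm, Nefh and the transporter Slc17a7. The neuronal list had a median log2 change of 0.47, beside 0.01 over all tested genes with a symbol. Without control 1, or without mimic 4, 6 of the 18 were called, and 3 within each slide row alone. Of the Schwann cell markers, Cdh19 was above background on no array, and S100b alone of the 3 tested rose (limma, adjusted p = 6.01e-05). Their summed scaled intensity was 1357 to 1944 on the mimic arrays and 1324 to 1536 on the control arrays, and their part in the neuronal values was not tested.

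Of 19 tested genes of a ciliary list, 6 rose and 2 fell (limma, adjusted p under 0.05), where 18.2% of all tested genes with a symbol rose and 20.1% fell. At an unadjusted p under 0.05, 7 rose and 4 fell. The median log2 change of the ciliary list was 0.06. Cfap126, a protein of the ciliary base in multiciliated cells, read 271, 267, 228 and 235 on mimic arrays 2, 4, 5 and 7, against 143, 113, 120 and 125 on control arrays 1, 3, 6 and 8 (log2 fold change 1.00, SE 0.10, limma adjusted p = 0.000188). The radial spoke gene Rsph9 changed by 1.06 (SE 0.19, limma adjusted p = 0.00313) and Ccno, which drives the multiplication of ciliary basal bodies, by 1.02 (SE 0.20, limma adjusted p = 0.00579). Bbs5, of the complex that sorts ciliary membrane proteins, had a smaller log2 fold change of 0.37 (SE 0.08, limma adjusted p = 0.00973).

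The 2 genes that fell act in the primary cilium, which fibroblasts carry. Most other tested genes of that cilium on the list did not pass the test, and Bbs5 rose. Most of their log2 fold changes were nonetheless below 0, such as -0.47 for Iqcb1, -0.29 for Ift88 and -0.27 for Bbs4. Only Bbs5 and Arl13b (0.06) lay above 0. A shift of primary cilium genes as a group was not tested. Cep290, a protein of the ciliary transition zone, had a log2 fold change of -0.79 (SE 0.14, limma adjusted p = 0.00357), and the transport motor Kif3a one of -0.36 (SE 0.12, limma adjusted p = 0.0492). The master regulators Foxj1, Rfx2 and Rfx3 and the axonemal dyneins Dnah5, Dnah9 and Dnah11 were among 18 listed genes above background on no array. Mcidas, another regulator of multiciliated cells, was above it on all 8 arrays (log2 change 0.47, SE 0.16, limma adjusted p = 0.0505). The axonemal dynein Dnaic1 was above it on 4 mimic and 3 control arrays and rose (log2 change 0.51, SE 0.13, limma adjusted p = 0.0149). With slide column as a block, 4 rose and 1 fell. Within slide row 1 alone 3 rose and 0 fell by limma (6 of the 19 at an unadjusted p under 0.05 in either direction), and within row 2 alone 2 rose and 0 fell (7 of the 19). Under normexp and under quantile normalization 1 fell.

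Immune genes made up 4 of the 31. Il1rl1, the receptor for interleukin 33, read 134, 108, 68.4 and 118 on mimic arrays 2, 4, 5 and 7, against 6.98, 16.2, 18.2 and 25.8 on control arrays 1, 3, 6 and 8 (at least 3.15-fold). Cd80, the costimulatory ligand that antigen-presenting cells show to T cells, read 56.8, 89.8, 74.97 and 81.9 with the mimic and 8.78, 21.4, 14.6 and 8.68 in controls (at least 2.27-fold). Both had every mimic array at least 1.58 times over its threshold. Fcgr3, a low-affinity receptor for immunoglobulin G, read 83.3, 96.1, 54.1 and 70.7 with the mimic and 31.1, 32.1, 27.0 and 18.6 in controls (at least 2.21-fold). Msr1, a scavenger receptor of macrophages, had the smallest bound of all 31 genes, 1.32-fold, with 39.1, 49.8, 41.5 and 44.4 with the mimic and 30.7, 23.1, 6.46 and 23.0 in controls. Control 1 reached 0.985 of its threshold for Msr1. Fcgr3 has close relatives in the genome, and whether its probe also binds their transcripts was not tested.

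Among 40 listed leukocyte genes, 25 were tested, of which 13 rose and 0 fell (limma, adjusted p under 0.05), with 19 higher and 0 lower at an unadjusted p under 0.05. The background for a rise at the adjusted threshold was 18.2%, and the leukocyte genes had a median log2 change of 1.12. The lysozyme gene Lyz2 read 417, 520, 280 and 410 on mimic arrays 2, 4, 5 and 7, against 101, 137, 115 and 109 on control arrays 1, 3, 6 and 8. Mimic 5 was lowest for Lyz2, as it was for Il1rl1 and Fcgr3 within the set. Cd80 and Msr1 were lowest on mimic 2, and mimic 5 was the lowest mimic array for 16 of all 31 genes. Csf1r, Cd68 and C1qa, all macrophage genes, had log2 fold changes of 1.04, 1.30 and 1.37 (SE 0.14, 0.25 and 0.28, limma adjusted p = 0.000806, 0.00441 and 0.00635).

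Of 8 macrophage markers, 7 rose and 0 fell (limma, adjusted p under 0.05), where 18.2% of all tested genes rose and 20.1% fell, with 8 higher and 0 lower at an unadjusted p under 0.05. These 8 markers are all on the leukocyte list too, so their calls repeat calls already counted there. Their summed scaled intensity was 3308 to 5991 on the mimic arrays and 2213 to 2310 on the control arrays, and all 8 were well above background on at least 2 arrays of either group. The pan-leukocyte gene Ptprc and the regulator Spi1 were above background on no array. Of the lymphocyte genes, Cd79a and Cd8a were above it on no array, while Cd3e, Cd4 and Nkg7 were above it on all 8 and did not pass the test (limma adjusted p = 0.196, 0.931 and 0.781). In bulk RNA, more cells of a type and more RNA per cell cannot be told apart, and the part of macrophages in the immune genes of the set was not tested. Without mimic 4, 8 of the 25 leukocyte genes were called, and within slide rows 1 and 2 alone 12 and 1 were.

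Epithelial genes were few. Fam83g, whose loss alters the mouse coat, read 91.3, 91.2, 85.2 and 85.7 on mimic arrays 2, 4, 5 and 7, against 27.8, 20.4, 14.8 and 19.0 on control arrays 1, 3, 6 and 8 (at least 2.67-fold). Its mimic arrays were nearly level. Fibcd1, a receptor for acetylated sugars such as chitin that is known from human gut epithelium, read 41.8, 55.0, 48.6 and 116 with the mimic and 7.35, 9.52, 7.47 and 9.37 in controls (at least 1.82-fold). Mimic 7 was the highest array for Fibcd1, and the controls were the farthest below threshold of all 31 genes, at no more than 0.270 of it.

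Of 18 tested epithelial genes outside the set, 4 rose and 0 fell (limma, adjusted p under 0.05), where 18.2% of all tested genes rose. At an unadjusted p under 0.05, 10 rose and 0 fell, and the 18.2% is no background for that count. The 4 past the adjusted threshold were Krt10, a keratin of differentiating epidermis (log2 fold change 0.36), and Evpl, of the cornified envelope (0.43), with the desmosome gene Pkp3 (0.44) and the integrin subunit Itgb4 (1.2001). In that order they had limma adjusted p = 0.0120, 0.0320, 0.0465 and 0.0497. The groups overlapped for Itgb4, with mimic 7 at 149 and control 3 at 186, and for Pkp3, with mimic 2 at 6952 and control 3 at 7716, but not for Krt10 and Evpl. These calls were not stable, with 1 to 8 of the 18 called when 1 array was left out: 8 without control 3, 4 without mimic 2, 2 without control 6 and 1 without any of the other arrays. Krt1, Ivl, Dsg3, Grhl2 and Ovol1 were among 12 listed genes above background on no array. The summed keratinocyte markers overlapped between groups, with 3159 to 5371 on the mimic arrays and 2297 to 4330 on the control arrays.

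**Figure D2:**
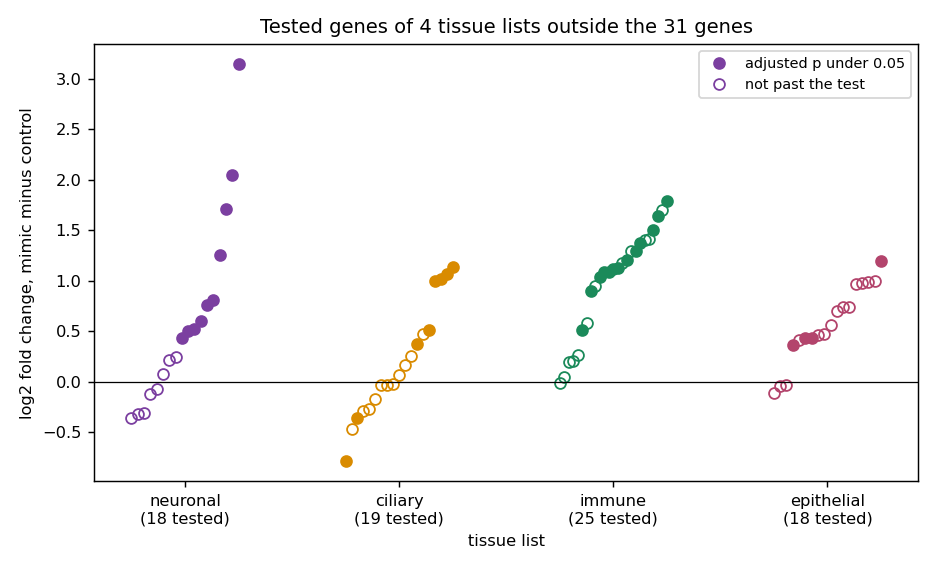
Log2 fold change (mimic minus control) of the tested genes of each tissue list outside the 31 genes, sorted within a list; filled points passed limma's adjusted p under 0.05. The neuronal and immune lists hold 10 of 18 and 13 of 25 genes that rose and none that fell, while the ciliary list holds 6 that rose and 2 that fell.

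The remaining 18 genes have no clear place in these classes, and several act at membranes and junctions. Lamc3, a laminin chain of basement membranes, read 209, 170, 139 and 147 on mimic arrays 2, 4, 5 and 7, against 25.7, 20.5, 31.8 and 32.1 on control arrays 1, 3, 6 and 8 (at least 4.97-fold). Jam2, a junctional adhesion molecule of endothelium, read 155, 146, 75.9 and 98.4 with the mimic and 18.9, 27.8, 17.7 and 31.3 in controls (at least 3.45-fold). Lamc3 is the direct neighbour of Fibcd1 on chromosome 2, with no other protein-coding gene between them in the RefSeq table, the only such pair among the 31. The genes with a symbol lay on 14 chromosomes, with 5 on chromosome 6.

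Enzymes and cytoskeletal proteins led the rest. Acp7, a predicted acid phosphatase, read 83.9, 199, 106 and 172 with the mimic and 11.7, 19.2, 29.0 and 10.3 in controls, at least 4.00-fold. Fsd1, a microtubule-associated protein, read 142, 142, 90.0 and 111 with the mimic and 14.7, 25.2, 18.2 and 29.5 in controls, at least 3.61-fold. Both genes had all mimic arrays at least 2.03 times over their thresholds. Xkrx, a relative of the Kell blood group protein XK, read 66.8, 90.7, 71.1 and 73.9 with the mimic and 14.6, 13.3, 24.6 and 11.9 in controls (at least 2.27-fold). Inka2, an inhibitor of the kinase PAK4, read 82.7, 55.7, 71.9 and 84.7 with the mimic and 10.4, 17.3, 18.8 and 9.55 in controls (at least 2.20-fold). The uncharacterised gene 1700088E04Rik lay between 60.5 and 83.4 with the mimic and between 9.20 and 14.1 in controls (at least 2.07-fold).

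Genes of transport, glycosylation and protein turnover had controls close to the detection threshold. Gxylt2, which adds xylose to the Notch receptor, read 119, 85.3, 56.1 and 81.8 with the mimic and 30.5, 28.2, 36.4 and 43.2 in controls (at least 2.38-fold). Ccpg1, a receptor for the autophagy of endoplasmic reticulum, read 87.5, 77.1, 79.9 and 51.8 with the mimic and 31.3, 31.7, 32.4 and 33.8 in controls (at least 2.16-fold). Their highest controls reached 0.907 and 0.927 of the threshold. Flvcr2, a transporter of haem and choline, ran from 51.4 to 103 with the mimic and from 13.8 to 42.1 in controls (at least 1.95-fold). Slc23a3, of the ascorbate transporter family, ran from 42.5 to 84.9 with the mimic and from 27.96 to 39.6 in controls (at least 1.68-fold). Trim7, a ubiquitin ligase that binds glycogenin, ran from 46.1 to 51.3 with the mimic and from 15.4 to 29.4 in controls (at least 1.504-fold).

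The last 6 members had lower bounds under 2-fold. Klrg2, a lectin-like receptor, ran from 53.2 to 75.5 with the mimic and from 8.18 to 37.2 in controls (at least 1.83-fold). Ang2, a ribonuclease of the angiogenin family, ran from 52.9 to 70.2 with the mimic and from 18.5 to 38.5 in controls (at least 1.73-fold), and its near-identical relatives were not separated from it here. Tnni3k, a kinase of heart muscle, ran from 44.5 to 65.2 with the mimic and from 9.12 to 25.2 in controls (at least 1.62-fold). Ccdc122, a coiled-coil protein, ran from 46.7 to 53.0 with the mimic and from 9.85 to 22.4 in controls (at least 1.52-fold). The olfactory receptor gene Olfr213 ran from 39.0 to 55.9 with the mimic and from 15.3 to 34.5 in controls (at least 1.41-fold). The RefSeq entry NM_001030289, which the gene table did not name, ran from 62.5 to 71.9 with the mimic and from 7.69 to 36.7 in controls (at least 1.92-fold).

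**Figure D3:**
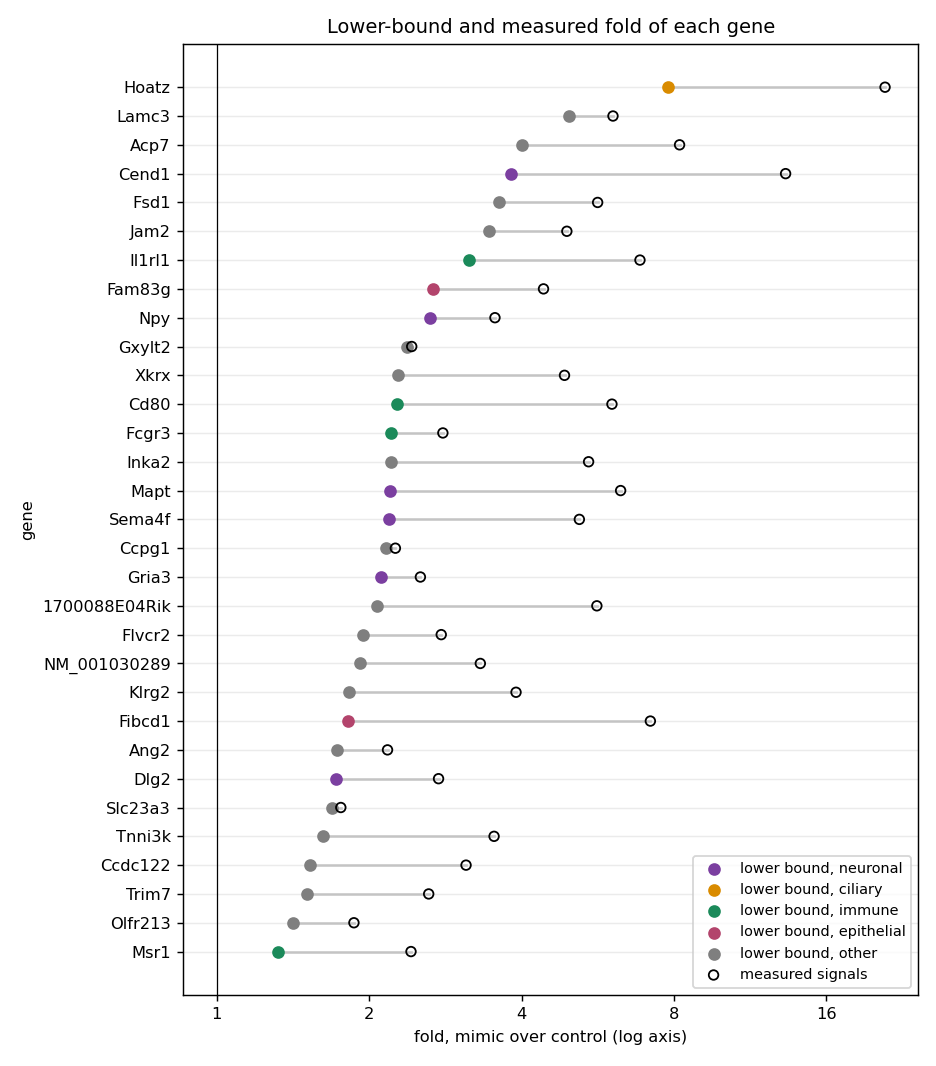
Lower-bound fold (filled points, coloured by tissue class) and fold of the measured signals (open points), mimic over control on a log axis, for each of the 31 genes. The bound is 7.78 for Hoatz and 1.32 for Msr1, and it lies far below the measured fold where controls were deep in the background, as for Cend1 and Fibcd1.

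How near these genes lie to the threshold was examined next, because the rule is a yes or no at that line. For 20 of the 31 genes the lowest mimic array was less than 1.2 times its threshold, for 14 the highest control was above 0.8 of it, and for 13 both held. Just inside the line, Gria3 and Dlg2 had lowest mimic signals of 1.00 times the threshold, and Olfr213 a highest control of 0.988 of it. Just outside it, 50 genes were well above background on 3 of 4 mimic arrays and no control. Pram1, Jakmip2 and Nipal3 came closest, with their failing array at 0.994, 0.989 and 0.977 of the threshold. A further 73 genes had a probe above it on all mimic arrays and on 1 control. They include Ccdc122, which is in the set through its other probe. For Lmtk3, Prom1 and Cfap45 that control was at 1.00, 1.01 and 1.01 times the threshold.

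**Figure D4:**
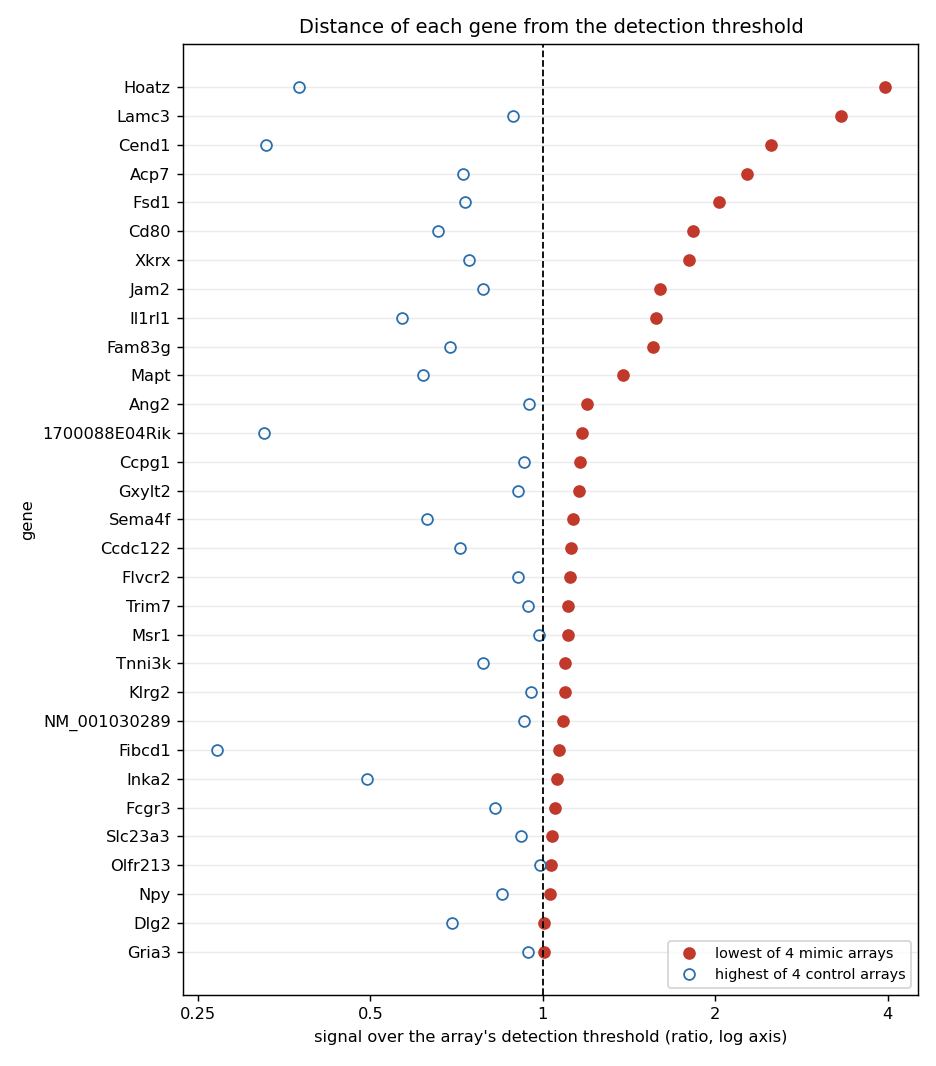
Background-subtracted signal over the array's detection threshold (ratio, log axis) for the lowest mimic array (filled points) and the highest control array (open points) of each gene, ordered by the filled points. The dashed line at 1 is the threshold, and 20 filled points lie between 1 and 1.2.

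The scanner software has a second, laxer flag for a signal that is positive and significantly above background. By that flag, 21 of the 31 genes were seen on all 4 control arrays, 6 on 3, 3 on 2 and Fibcd1 on 1, so a signal was recorded in controls for most of the set. In all, 109 of the 124 control signals carried it. Under the laxer flag 14 genes met the rule. Of these, 1 was among the 31 genes, through another of its probes, since each of the 31 probes carried the flag on at least 1 control.

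The name of the set holds for probes rather than for genes in 9 cases. Of the 31 genes, 13 had another probe on the array (16 probes in all), and for 9 of them a second probe was well above background on at least 1 control. Of the second probes, 7 were above background on all 8 arrays and 5 on none. None repeated the pattern of its partner in full. The second Ccdc122 probe came nearest, above background on all 4 mimic arrays and 1 control, and that of Msr1 was above it on 1 mimic array and no control.

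Il1rl1 had 2 other probes, both above background on all 8 arrays. Its probe for accession NM_010743 read 13758, 8293, 6848 and 12294 on mimic arrays 2, 4, 5 and 7, against 1780, 3070, 3105 and 3081 on control arrays 1, 3, 6 and 8 (log2 fold change 1.88). A second probe for the same accession as the one in the set, NM_001025602, read 4602, 2890, 2289 and 3426 with the mimic and 380, 728, 589 and 641 in controls (log2 fold change 2.49). The gene was thus well above background in control cells, and all 3 probes were higher with the mimic. Il1rl1 is known to be made as a membrane-bound and a soluble form, and the scanner files do not say which of them a probe reads.

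Jam2 likewise had a second probe, which read 1965, 1513, 871 and 1348 with the mimic and 335, 398, 295 and 421 in controls (log2 fold change 1.93). Cd80 read 157, 207, 252 and 218 with the mimic and 107.5, 126, 130 and 101 in controls at its second probe (log2 fold change 0.83), a smaller difference than at the probe in the set. Gxylt2 differed from these, since its second probe read 743, 704, 585 and 680 with the mimic and 745, 691, 648 and 768 in controls. With a log2 fold change of -0.07 and groups that overlap, Gxylt2 was not higher by that probe.

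Ccpg1 (log2 fold change 0.88), Gria3 (1.14), Inka2 (2.09), Mapt (1.92) and Ccdc122 (1.02) were higher with the mimic at the second probe too, and their groups did not overlap there. Their controls were above background on 4, 4, 3, 2 and 1 arrays. Another Mapt probe was above background on no array, with a log2 fold change of 0.36. The remaining 22 genes had no probe of any kind above background on a control array. Of these, 18 had only the probe in the set, so for them this follows from the rule. The other probes of Dlg2, Trim7 and the entry without a symbol were above background on no array.

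**Figure D5:**
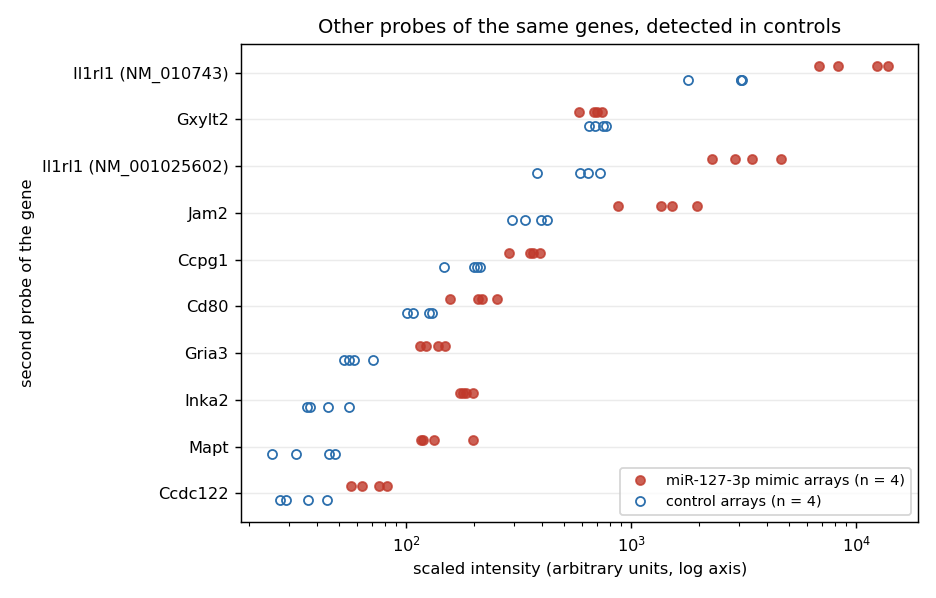
Scaled intensity (arbitrary units, log axis) of the 10 other probes that were well above background on at least 1 control, for the 4 mimic arrays (filled points) and the 4 control arrays (open points); Il1rl1 has 2 such probes, marked by accession. The groups overlap only for Gxylt2.

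The number of genes in the set depends on single arrays at the detection line. Applied to 7 arrays, the rule gave 67 genes without control 3, 64 without mimic 5, 48 without control 6 and 31 to 45 without any of the others, with all 8 arrays giving 31. With 1 common detection level for all arrays, the highest of the 8, the rule gave 68 genes, 26 of them among the 31, and 59 with the groups exchanged. So the set with the groups exchanged was the larger at each array's own level (31 with the mimic and 39 in controls) and the smaller at a common level. That set included the mitotic genes Mad2l1 and Sgo2a and the factor Foxm1, at least 5.17-fold, 3.68-fold and 3.45-fold lower with the mimic.

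Array quality was compared because it sets which dim probes are called. Between 20767 and 23474 probes were well above background on the mimic arrays, and between 20886 and 22640 on the control arrays. The 6 measures were probes called, 75th percentile, level and spread of negative controls, local background and the stricter detection level used for folds. None passed an exact two-sided permutation test over the 70 assignments (smallest p = 0.314, adjusted p = 0.754). The smallest p that this test can give is 0.0286 before adjustment over the 6 measures. If only 1 measure separated the groups fully, it would not have passed after adjustment. The test therefore cannot show that array quality was equal. No spot was saturated. Of 17093 features tested by limma, 5851 (34.2%) differed at an adjusted p under 0.05, 2717 higher and 3134 lower.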

How the data were processed

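RNA of 8 samples of cultured fibroblasts was read on 1-colour Agilent arrays. Per the file headers, the deposited scanner files hold processed signal intensity per spot, made by Feature Extraction 11.5.1.1 with background subtraction. The deposited value table holds log2 values made by the authors with GeneSpring 14.9.1, per the labels, and equals the log2 processed signal less 1 constant per array, with column medians between -3.78 and -3.60 and no centring of genes.

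Spots of a probe were averaged over 55681 probes. Log2 processed signal minus each array's 75th percentile was fitted with limma 3.58.1 (R 4.3.3) on probes well above background on at least 4 of 8 arrays, with 1 probe per feature (the highest mean) and Benjamini-Hochberg adjustment over 17093 features. Accessions were named through RefSeq tables (28331 probes matched) and otherwise kept the file's name. The fit was tested on simulated data. Normexp (offset 50) used median spot signals, since the files hold no mean signal. Depth does not apply to arrays, and 4 arrays per group limit the precision.

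The members and lists were chosen with earlier results of these data known, and tissue classes were assigned by hand from the member names. Genes named were, among members, the 12 largest bounds, the 6 brightest, up to 8 per class, those nearest the threshold and those with a second probe detected in controls, and, per list and direction, up to 4 with the smallest p. The other members were named after their values were seen, as were the listed genes above background on no array, Mcidas, Dnaic1, Cd3e, Cd4, Nkg7, S100b and the 3 genes from the set with the groups exchanged. Alternatives were other background corrections, normalizations, filters, detection flags, slide blocks and leaving out each array.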

Additional observations from a re-analysis of the deposited data

Results flagged for a closer look

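In 3 of 74 groups of 4 arrays examined, 1 array lay far from the other three, judged by its gap to the nearest array as a share of the group's range against Dixon's critical value. Chance gives about 1 in 20 such cases. Hoatz was low on mimic 5 (share 0.876), Npy was low on mimic 5 (0.852) and Trim7 was low on mimic 2 (0.836).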

How the results depend on the processing

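The number of genes detected only with the mimic (31) was 14 by the laxer flag, 226 when 3 of 4 mimic arrays and at most 1 control were allowed, 165 and 144 within slide rows 1 and 2, 68 at 1 common detection level and 52 over all probes, and 31 to 67 when 1 array was left out (67 without control 3, 64 without mimic 5, 48 without control 6). The common level and the count over all probes were chosen after seeing the data. With the groups exchanged (39), the laxer flag gave 27, the looser rule 277 and the slide rows 141 and 204. Fold changes of members kept their direction in all 403 comparisons. Within slide rows and with 1 array left out that was fixed in advance, since the groups did not overlap. In 34 comparisons the fold moved by more than 1 SD, 30 of them under normexp, and the cause was not tested. The count of changed features (5851) was 3657 with no filter on dim probes, where more probes share the adjustment, 1759 and 1611 within slide rows 1 and 2, with fewer arrays, and 4320 to 5789 with 1 array left out. Within rows 1 and 2, neuronal calls (10) were 3 and 3, ciliary calls (8) 3 and 2, and epithelial calls (4) 0 and 2; immune calls (13) were 1 within row 2. For the epithelial 0 of limma in row 1, 1 gene had an unadjusted p under 0.05. With no filter, ciliary calls were 4 and epithelial calls 0 (11 at an unadjusted p under 0.05). With slide column as a block, ciliary calls were 5 and epithelial calls 1, and with slide row as a block epithelial calls were 2. Leaving out 1 array gave 6 to 12 neuronal, 6 to 8 ciliary, 8 to 17 immune and 1 to 8 epithelial calls. No paired analysis was run. The replicate numbers are the sample numbers of the titles, and the labels do not say whether samples of the 2 groups shared a culture or batch. Such pairing was not tested, and the p-values here take the arrays as unpaired. Signals near background limit what the controls can show.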
